A study of Homo sapiens with 18 samples.

Results

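The human mitochondrial genome carries 37 genes, and all of them were described here in MDA-MB-231 cells with and without doxorubicin and with and without extra ZMYND8. They were taken by one rule, a place on chrM in the deposited count tables, which list 60603 genes. The 37 genes are 13 for mRNAs of respiratory chain proteins, 2 for the ribosomal RNAs (rRNAs) of the mitochondrial ribosome and 22 for transfer RNAs (tRNAs). MDA-MB-231 is an established line of basal breast cancer, ZMYND8 is a chromatin reader protein, and doxorubicin is an anthracycline used in chemotherapy that binds DNA and blocks topoisomerase.

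RNA was captured by its poly(A) tail and sequenced in 18 libraries of 9 conditions, which the labels describe as 2 biological replicates each. In the transient system of 6 libraries, control cells received the empty vector and vehicle, a second condition received 0.6 µM doxorubicin for 48 h, and the last condition is labelled as FLAG-ZMYND8 transfection with the same treatment. In the inducible system of 12 libraries, G418-selected cells carried a lentiviral pInducer20 construct for GFP or for ZMYND8. They were given 250 ng/mL doxycycline, which was kept throughout, and then no doxorubicin or 0.6 µM doxorubicin for 6 or 48 h. In the treated libraries doxycycline came 4 h before doxorubicin. Each construct is represented by 1 line, and the duration of doxycycline in the libraries without doxorubicin is not given in the sources used here, so the time in doxycycline and the time in doxorubicin cannot be told apart.

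Both strands of the mitochondrial DNA are transcribed by the polymerase POLRMT into long precursors that cover many genes. The tRNAs lie between the other genes and are cut out of the precursors, which frees the mRNAs and rRNAs. Most of these then receive short poly(A) tails, so most mitochondrial mRNAs and part of the rRNA enter a poly(A) library while most tRNAs do not. The mRNAs encode core subunits of complexes I, III and IV of the respiratory chain and of the ATP synthase, complex V, and every other subunit of these complexes comes from nuclear genes.

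The genes are packed so tightly that some share bases. Fragments that touched more than 1 gene were left out of the counts, so the shared stretches below lower the counts of both partners. They are shown because MT-ATP8, the gene with the largest part in an overlap, is compared with the others below. Capitals mark the bases that belong to both genes, read from the hg38 reference on the plus strand.
MT-ATP8/MT-ATP6, chrM:8517-8582: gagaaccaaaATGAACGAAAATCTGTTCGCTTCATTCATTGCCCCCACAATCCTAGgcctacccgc
MT-ND4L/MT-ND4, chrM:10750-10776: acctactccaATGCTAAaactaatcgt
MT-ATP8 and MT-ATP6 share 46 bases, and MT-ND4L and MT-ND4 share 7. MT-TS1 is shown as well. It is a tRNA for serine on the minus strand, lies directly next to the end of MT-CO1 on the plus strand and was the most abundant tRNA of the transient libraries. Its sequence runs 5′ to 3′ on its own strand, without capitals.
MT-TS1, chrM:7446-7514, minus strand: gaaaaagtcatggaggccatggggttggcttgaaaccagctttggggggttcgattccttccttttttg

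Library totals were 5729294 to 24713822 counts for transient and 18300628 to 23724398 counts for inducible libraries. ZMYND8 itself stood at 829 to 999 CPM (counts scaled to library size with edgeR's TMM factors) in the ZMYND8 lines and at 93.8 to 209 CPM in the GFP lines. In the transient system it stood at 159 and 124 CPM where the label gives FLAG-ZMYND8. With doxorubicin alone it was at 181 and 122 CPM, and in control libraries at 218 and 198 CPM. The labelled libraries thus showed no excess of ZMYND8 over those with the same drug treatment. The words "labelled ZMYND8" are therefore kept for them. Replicate 2 of the doxorubicin condition and replicate 2 of the labelled condition had mitochondrial counts that were close to each other, with a chi-square over degrees of freedom of 4.69 against 32.1 to 405 in the other pairs of transient libraries. Over 17816 genes this pair had 1.39, against 9.71 to 55.6 in the other transient pairs and 2.19 to 5.21 in the replicate pairs of the inducible system. These near-identical libraries belong to different conditions, and results that rest on them are given with and without both. Of 10 marker genes expected in this line, such as VIM (2039 to 4249 CPM), 9 were well expressed, and SPARC stood at 2.99 to 5.46 CPM in the transient and at 0.226 to 170 CPM in the inducible libraries. Of 10 markers of other breast, blood, endothelial or liver cells, ALB, CD3E, ESR1, FOXA1 and PGR stayed at or below 1.29 CPM. PTPRC (at most 4.44 CPM), PECAM1 (at most 5.29), ERBB3 (at most 21.1), GATA3 (at most 22.6) and CDH1 (at most 24.4) were detected, so that these 5 markers were not absent.

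The mitochondrial genes took 3.79% to 7.37% of all counts in the transient libraries and 0.893% to 3.01% in the inducible ones. In the transient system the share was 7.37% and 3.79% in control cells and 6.76% and 4.34% after doxorubicin. The labelled ZMYND8 libraries had 5.52% and 4.36%. The ranges of the 3 conditions overlapped, and the spread within a condition was wider than the distance between the condition means (5.58% ± 2.53, 5.55% ± 1.71 and 4.94% ± 0.823, SD, n = 2). In the inducible system untreated GFP cells had a share of 0.893% and 0.947%, which became 1.04% and 1.03% with 6 h of doxorubicin and 1.66% and 1.70% with 48 h. In ZMYND8 cells it was 1.29% and 1.96% at the start, 1.41% and 1.55% at 6 h and 3.01% and 2.73% at 48 h. Every ZMYND8 library therefore stood above both GFP libraries of the same time, and in each line both 48 h libraries stood above the other libraries of that line. The untreated ZMYND8 libraries were the widest pair of the inducible system (1.62% ± 0.473, SD, n = 2). The counting error of these shares is far smaller than the distance between libraries: the exact (Clopper-Pearson) 95% interval of the first control library was 7.35% to 7.39%. Intervals cover counting error only, since the reads carry no molecular identifiers.

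**Figure D1:**
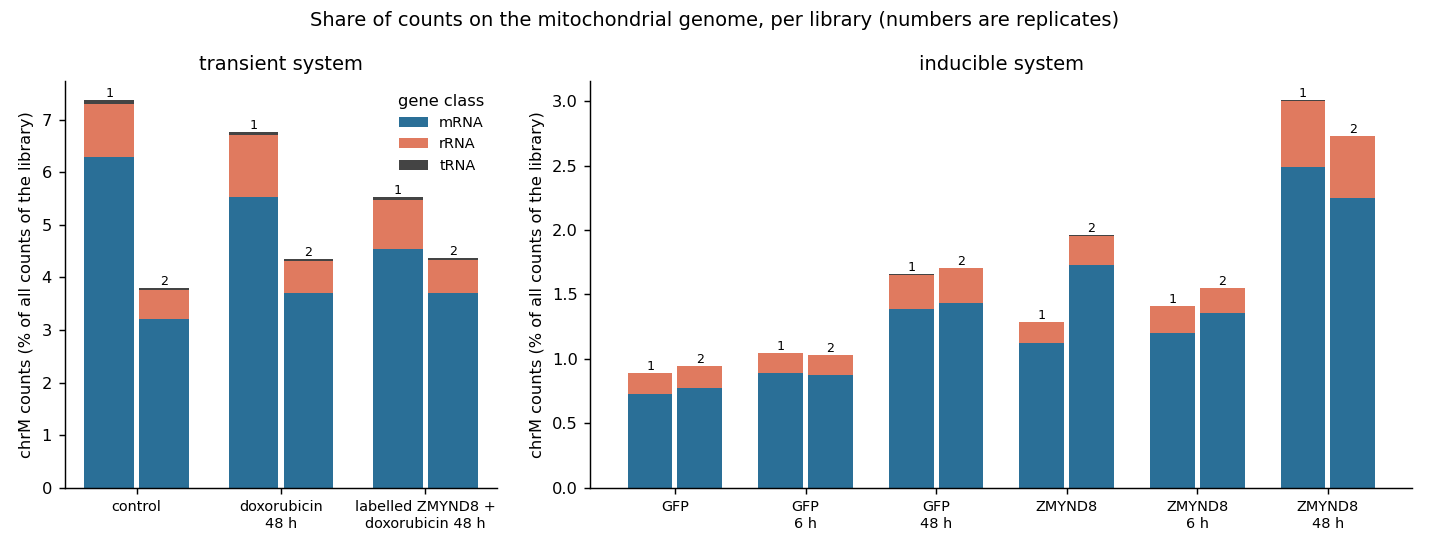
Share of all counts on the mitochondrial genome (percent, vertical axis) in each of the 18 libraries, split into the mRNA, rRNA and tRNA classes. The transient libraries spread from 3.79% to 7.37% with overlapping conditions, while in the inducible system the 48 h libraries reached 1.66% and 1.70% in GFP cells and 3.01% and 2.73% in ZMYND8 cells.

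The mRNA class held most of the share in every condition. In GFP cells the mRNAs took 0.751% of all counts on average, the rRNAs 0.168% and the tRNAs 0.000907%, and in ZMYND8 cells after 48 h of doxorubicin the means were 2.37%, 0.499% and 0.00271%. In transient control cells the means were 4.75% for mRNAs, 0.779% for rRNAs and 0.0512% for tRNAs. The balance of rRNA to mRNA was not constant. For every 100 counts on mRNAs the rRNAs of untreated GFP cells had 22.2 and 22.5, those of the 6 h libraries 17 and 18 and those of the 48 h libraries 19.2 and 18.6. ZMYND8 cells had 14.9 and 13.1 at the start, 17.4 and 14.3 at 6 h and 20.7 and 21.6 at 48 h. So untreated ZMYND8 cells stood below untreated GFP cells in this ratio and 48 h ZMYND8 cells above 48 h GFP cells. The rRNA share of a poly(A) library also reflects how much RNA without a long tail was carried along, and a list of 14 nuclear RNAs without poly(A) tails took 0.0529% to 0.0649% of counts in GFP libraries and 0.0160% to 0.0399% in ZMYND8 libraries. Its part in the rRNA values was not tested. In bulk RNA, a change in the number of mitochondria, in the RNA per mitochondrion and in the rest of the RNA cannot be told apart.

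Levels per length, as RPKM (counts scaled to gene length and to the library total), differed between the mRNA genes. In the inducible libraries MT-CO2 (a catalytic subunit of complex IV, cytochrome c oxidase) ranged over 1655 to 4214 RPKM, MT-CO1 (the other catalytic subunit) over 1250 to 5184 RPKM and MT-ND3 (a complex I subunit) over 1459 to 3292 RPKM. At the low end were MT-ND5 (a complex I subunit) with 127 to 574 RPKM, MT-ATP8 (an ATP synthase subunit) with 202 to 605 RPKM, MT-CYB (the only complex III subunit encoded here) with 220 to 964 RPKM and MT-ND6 with 64.2 to 224 RPKM. MT-ND6, a complex I subunit, is the only mRNA encoded on the minus strand. In GFP cells the order began with MT-ND3 (1718 ± 43.8 RPKM) and MT-CO2 (1714 ± 83.4 RPKM), neighbours that did not differ beyond their spread, followed by MT-CO1 (1284 ± 47.6 RPKM) and MT-CO3 (1109 ± 99 RPKM, all SD, n = 2). MT-ATP6, a subunit of the ATP synthase, stood at 803 ± 47.6 RPKM and its overlapping neighbour MT-ATP8 at 203 ± 2.48 RPKM. Fragments that touched both genes were left out of both counts, and the part of this in the gap was not tested. After 48 h of doxorubicin MT-CO2 and MT-CO1 led in GFP cells (2844 ± 61.1 and 2621 ± 3.23 RPKM) and MT-CO1 led in ZMYND8 cells (4951 ± 329 RPKM). In the transient libraries MT-CO2 (5217 to 12619 RPKM) and MT-CO1 (5679 to 8754 RPKM) led, and MT-ND3 was at 1916 to 3720 RPKM.

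The rRNAs kept a steady ratio to each other. Per length, MT-RNR2, the large-subunit rRNA, stood 4.42 to 5.01 times as high as MT-RNR1, the small-subunit rRNA, in the inducible libraries and 4.32 to 5.38 times as high in the transient ones. MT-RNR2 ranged over 859 to 2923 RPKM in the inducible and 3154 to 6873 RPKM in the transient libraries. Part of the genome has a long copy in the nuclear DNA. The stretch of chrM from MT-ND1 to MT-CO3 lies, at 98.5% identity over 5846 bases, at chr1:629081-634924, which covers MT-ND2, MT-CO1, MT-CO2, MT-ATP8 and MT-ATP6 whole. It also covers the tRNA genes from MT-TI to MT-TK along chrM, among them MT-TC, MT-TN and MT-TS1. Of the bases of MT-RNR1, 36.8% lie in nuclear copies. Reads that match both places equally well were left out of the counts, so levels of these genes are uncertain to that extent, whereas MT-ND3, MT-ND4L, MT-ND4, MT-ND5, MT-ND6 and MT-CYB have no such copy. Nuclear pseudogenes of mitochondrial genes, 404 in the tables, had 1.10% to 1.40% as many counts as the mitochondrial genes in the inducible and 1.51% to 2.09% in the transient libraries.

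**Figure D2:**
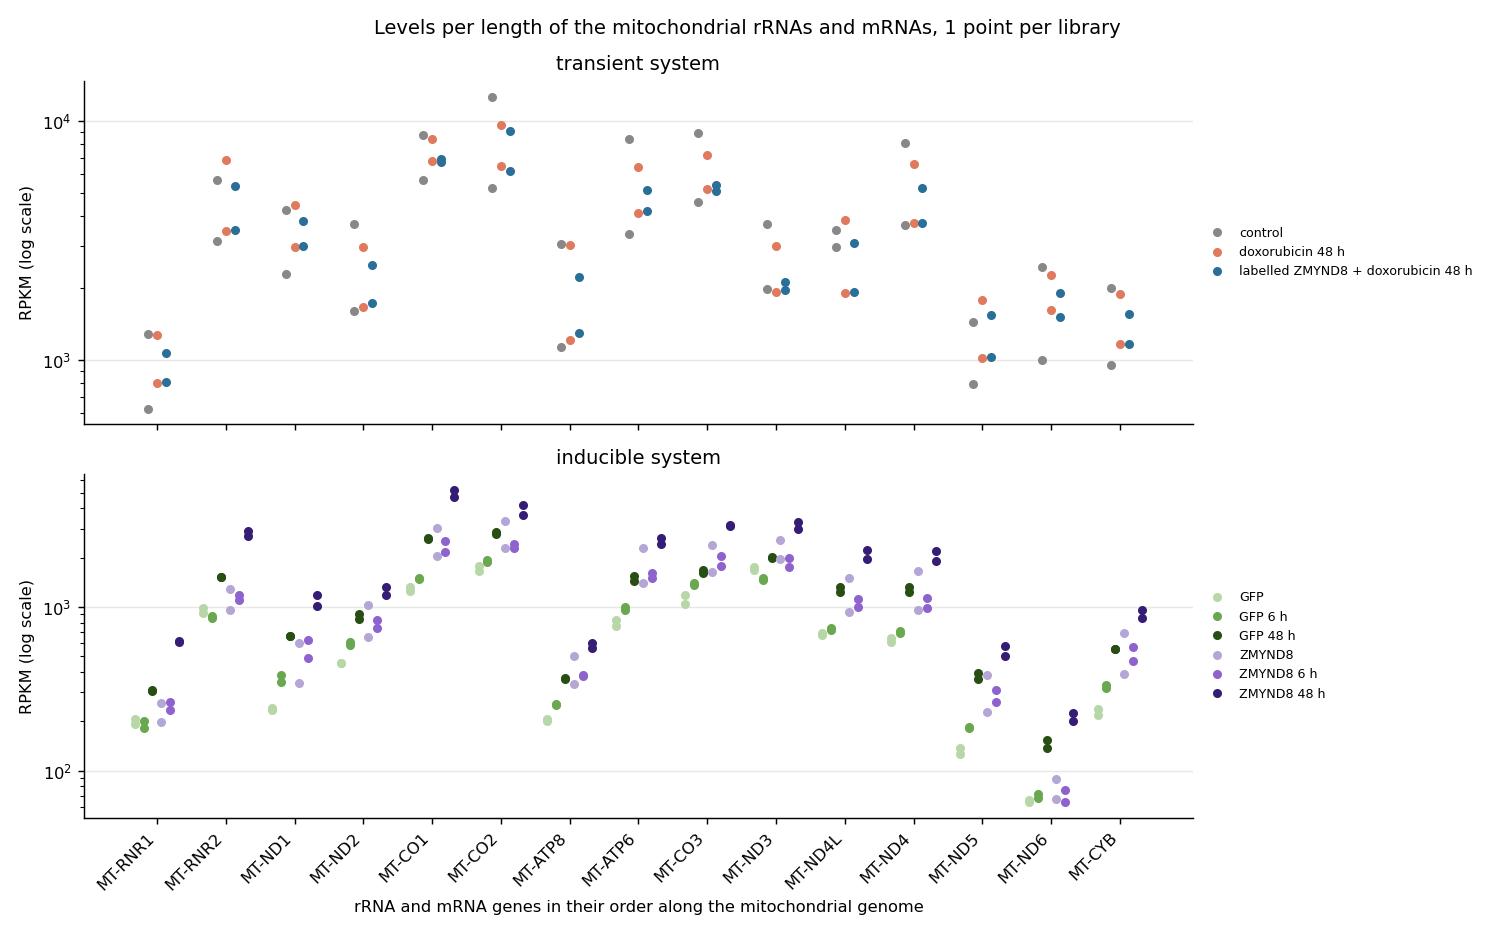
Level per length (RPKM, log axis) of each mitochondrial mRNA and rRNA by condition, with 1 point per library. MT-CO1, MT-CO2, MT-CO3 and MT-ND3 are the mRNAs that lie highest and MT-ND6 lies lowest in the inducible libraries (64.2 to 224 RPKM), whereas MT-ND6 lies between 1000 and 2460 RPKM in the transient ones.

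Genes on the minus strand separated the systems. For every 1000 counts on the 12 plus-strand mRNAs, MT-ND6 had 16.7 to 23.5 counts in the transient libraries and 2.69 to 5.66 in the inducible ones. The 8 minus-strand tRNA genes took 92.1% to 96.6% of all tRNA counts in the transient libraries and 58.3% to 83.9% in the inducible ones. MT-TS1, whose sequence is shown above, had 9.88 to 30.0 counts for every 1000 on MT-CO1 in transient libraries and 0.257 to 0.619 in inducible ones. The counting was set to the reverse strand, but the library protocol in the sources does not say that strand was marked. Reads from a gene and from the opposite strand therefore cannot be told apart with certainty, and the minus-strand values are uncertain, above all in the transient system.

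The tRNAs were sparse. In the inducible libraries MT-TL1, a tRNA for leucine next to the end of MT-RNR2, had 17 to 180 counts, MT-TS1 12 to 98, MT-TC (cysteine) 23 to 71 and MT-TN (asparagine) 21 to 69. The order depended on the condition, since untreated GFP cells had 17 and 18 counts on MT-TL1 but 48 and 57 on MT-TC. MT-TL2 had no count in any of the 12 libraries, MT-TH had 1 count in all, MT-TR 3, and MT-TG and MT-TS2 4 each. Between 4 and 10 of the tRNA genes were at 0 in an inducible library, and 0 to 2 in a transient one, where MT-TS1 reached 604 to 2761 counts, MT-TP (proline) 267 to 1723 and MT-TY (tyrosine) 298 to 1545. The filter on low counts left 13 of the 22 tRNAs for the transient test and 11 for the inducible one beside all mRNAs and rRNAs, that is 28 and 26 of the 37 genes. MT-TE (glutamate) and MT-TT (threonine) were tested in both systems, MT-TA (alanine), MT-TF (phenylalanine) and MT-TI (isoleucine) in the transient one only. The remaining 9 and 11 tRNAs were not tested.

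In the transient system, no mitochondrial gene passed the test after 48 h of doxorubicin. Genes were called at a Benjamini-Hochberg adjusted p of at most 0.05 over all 15697 genes tested with edgeR's quasi-likelihood test, which called 2.98% of them as higher and 2.15% as lower. Of the 28 mitochondrial genes 0 were called by edgeR and 0 by DESeq2, and 2 had an unadjusted p of at most 0.05, against 22.2% of all genes. A fit that blocked on the number of the replicate called 2. The mRNAs had a median log2 fold change of -0.28. MT-ND4, a complex I subunit, stood at 12480 and 5214 CPM in control cells and at 9041 and 4842 CPM after doxorubicin, so that the conditions overlapped. MT-TS1 was the gene with the largest difference, with 427 and 270 CPM in control cells and 202 and 105 CPM after doxorubicin, which gives a fold change of -1.19 on the log2 scale (SE 0.407, unadjusted p = 0.0138, adjusted p = 0.116). Its conditions did not overlap, and MT-TL1 also stood apart in the opposite direction, with 4.39 and 3.13 CPM against 6.60 and 8.81 CPM (log2 fold change 1.06, adjusted p = 0.105).

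The labelled ZMYND8 libraries were set against the same control libraries. edgeR called 3.85% of all genes as higher and 2.97% as lower, and 0 of the 28 mitochondrial genes. DESeq2 called 0, and 2 had an unadjusted p of at most 0.05, against 24.4% of all genes. With the replicate block 1 was called. The median log2 fold change of the mRNAs was -0.40. MT-ND3 had the lowest value among them (-0.64, SE 0.334, adjusted p = 0.272), with 1439 and 706 CPM in control cells and 743 and 637 CPM in the labelled libraries. MT-TS1 was at 237 and 99.1 CPM (log2 fold change -1.05). Between the labelled libraries and those with doxorubicin alone, edgeR called 0% of all genes in either direction, 0 mitochondrial genes by edgeR or DESeq2, and 0 at an unadjusted p of at most 0.05, which 0.344% of all genes reached. The mRNAs had a median log2 fold change of -0.16 here. Without both near-identical libraries 0 mitochondrial genes were called in each of the 3 comparisons, in a fit that has 1 library in each treated condition and takes its spread from the control pair alone, so that it says little about stability. The standard errors of the mRNAs were 0.28 to 0.51 in this system, so changes of the size seen in the inducible cells below could have been missed.

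In GFP cells, which carry the control construct, few mitochondrial genes were called after 6 h of doxorubicin. Of the 26 mitochondrial genes tested 7 were called as higher, where 22.1% of all 18801 genes tested were, and 1 as lower, where 25.8% were. The number higher is near the background share and the number lower is below it, so neither sets the mitochondrial genes apart. MT-ND1, a complex I subunit, rose most, from 236 and 244 CPM to 390 and 350 CPM (log2 fold change 0.62, SE 0.144, adjusted p = 6.64e-04). The libraries of both conditions did not overlap. MT-CYB (0.52), MT-ND5 (0.48), MT-ND2 (0.39), MT-CO3 (0.32), MT-ATP8 (0.32) and MT-ATP6 (0.29) rose less. MT-ND3 fell by 0.21 on the log2 scale (SE 0.0737, adjusted p = 0.0179), from 640 and 617 CPM to 554 and 530 CPM. The calls of MT-ND3, MT-CO3, MT-ATP8 and MT-ATP6 did not hold in every fit that left out a library. Their values in these fits were -0.24 to -0.18, 0.23 to 0.42, 0.31 to 0.33 and 0.23 to 0.35, in this order. The rRNAs MT-RNR1 (-0.07) and MT-RNR2 (-0.13) did not pass the test, and neither did any tRNA. DESeq2 called 1 of the genes, and 4 were called without the first GFP library.

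After 48 h of doxorubicin most mitochondrial mRNAs and both rRNAs were higher in GFP cells. Of the 26 genes tested 16 were called as higher, against 32.4% of all genes, and 0 as lower, against 31.8%. They were 12 of the 13 mRNAs, both rRNAs and 2 of the 11 tRNAs tested, MT-TL1 and MT-TS1. In the same comparison 8 of the 10 markers expected in this line were lower and 1 higher (median log2 fold change -0.60), and of 8 tested markers of other cells 5 were higher and 2 lower (median 2.11), and their part in the result was not tested. The mRNAs had a median log2 fold change of 0.69, that of all genes being 0.03. MT-ND5 stood at 243 and 262 CPM in untreated cells and at 589 and 633 CPM after 48 h, a rise of 1.27 on the log2 scale (SE 0.126, adjusted p = 1.25e-09). MT-ND1 changed by a similar amount, from 236 and 244 CPM to 566 and 568 CPM (1.24, SE 0.142, adjusted p = 1.92e-08). MT-CYB (1.03), MT-ND6 (0.92), MT-CO1 (0.79), MT-ND4 (0.78) and MT-ND2 (0.69) came next in order. The subunits of the ATP synthase MT-ATP6 (0.65) and MT-ATP8 (0.60), the complex I subunit MT-ND4L (0.65) and the cytochrome c oxidase subunits MT-CO2 (0.49) and MT-CO3 (0.32) rose as well. MT-ND3 was the exception, with 640 and 617 CPM before and 615 and 618 CPM after (log2 fold change -0.03, SE 0.0732, adjusted p = 0.754).

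The make-up of the mitochondrial counts shifted in GFP cells. MT-ND3 made up 6.47% of them without doxorubicin, 4.93% after 6 h and 4.11% after 48 h, while MT-ND5 went from 2.60% to 3.22% and 4.07% and MT-ND1 from 2.47% to 3.36% and 3.78%. The rRNAs rose less than most mRNAs, MT-RNR1 by 0.38 (SE 0.0751, adjusted p = 7.59e-05) and MT-RNR2 by 0.43 (SE 0.0772, adjusted p = 2.46e-05). Scaled to the mitochondrial mRNA counts in place of TMM, which moved the median of all genes from 0.03 to -0.64, their signs turned (-0.28 and -0.24), as did those of MT-CO2, MT-ATP8, MT-ATP6, MT-CO3 and MT-ND4L. Such values are relative to the other mitochondrial mRNAs by construction. Across the 12 plus-strand mRNAs the log2 fold change at 48 h had a Spearman's rho of 0.73 with gene length and -0.59 with the level in untreated ZMYND8 cells. With length, rho was 0.62 in ZMYND8 cells at 48 h, and at 6 h 0.45 in GFP and 0.34 in ZMYND8 cells. With the level in untreated cells of the other line, it was -0.27 in ZMYND8 cells at 48 h. At 6 h it was -0.68 in GFP and -0.50 in ZMYND8 cells. The level is an RPKM, which is itself divided by length, so these rho values are not separate from those with length. All rho values are descriptions over 12 genes that share libraries and transcripts and are no independent replicates. MT-TL1 stood at 0.862 and 0.949 CPM before and at 3.20 and 3.83 CPM after (log2 fold change 1.95), on 17 and 18 counts against 72 and 91. When each library was left out in turn, with the lone library left in a condition assumed to vary like the other conditions, the rises held throughout, except MT-CO3, which was called in 3 of 4 fits, and MT-TS1, which was lost without the first GFP library. With library totals in place of TMM the median of all genes moved to 0.27, and MT-ND3 was then called as higher (0.22).

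**Figure D3:**
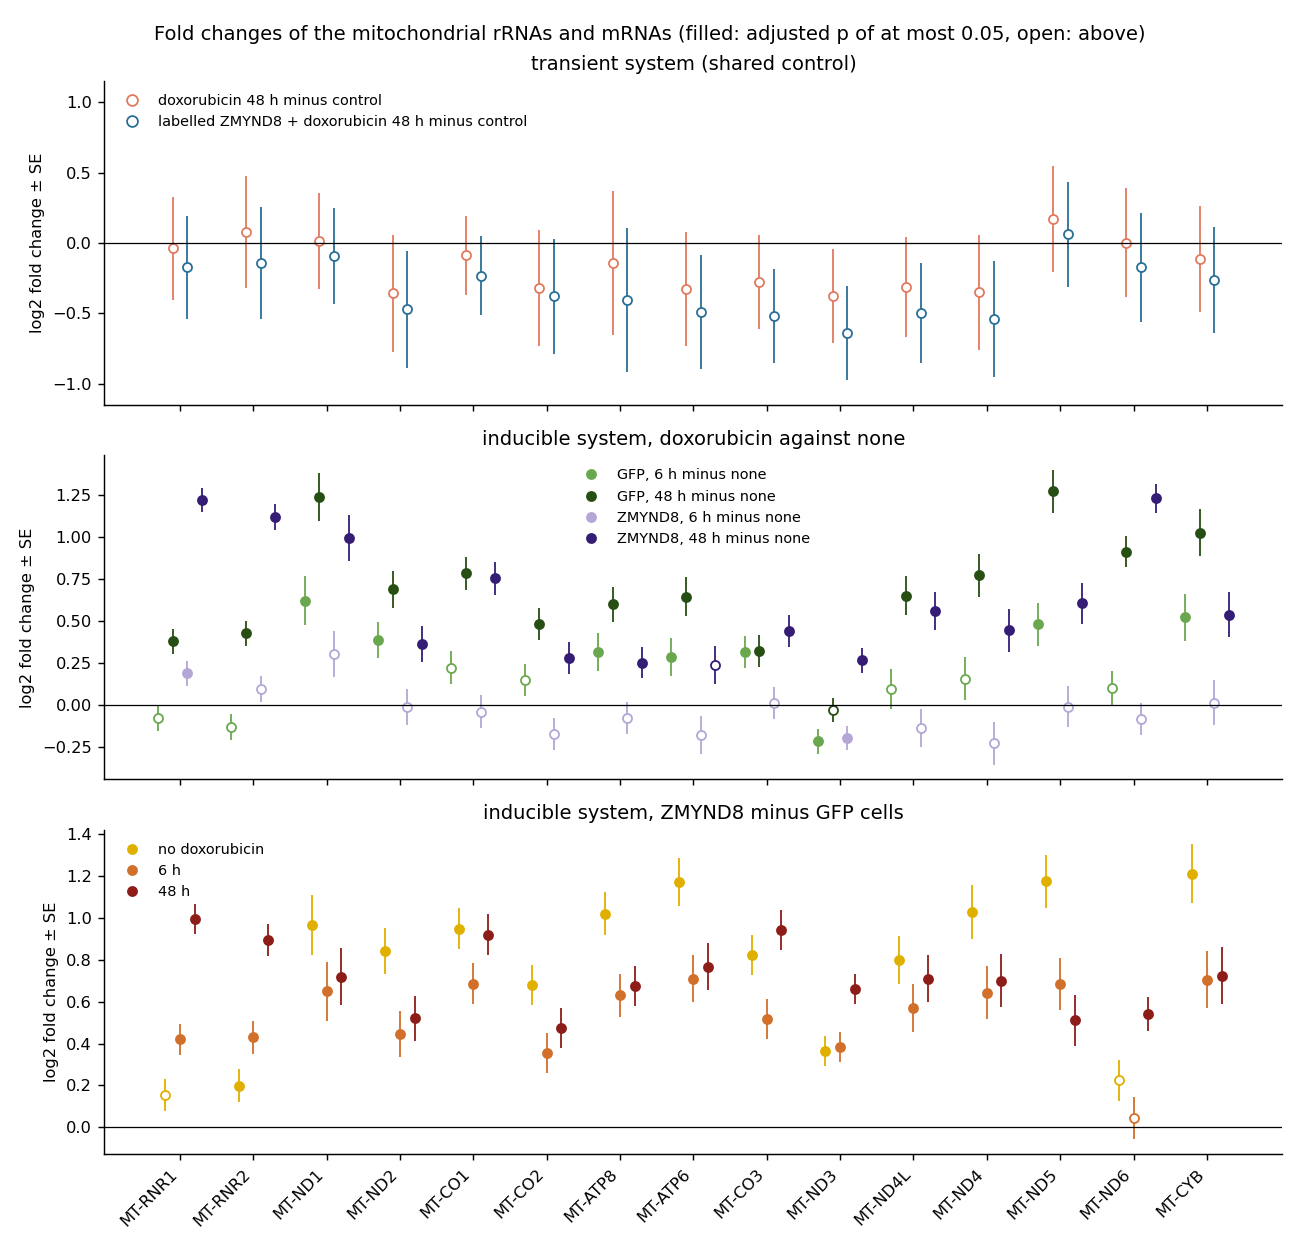
Log2 fold change (vertical axis, bars are 1 SE) of each mitochondrial rRNA and mRNA (horizontal axis, in genome order) in the transient system, within the inducible lines and between them, with filled points for adjusted p of at most 0.05. After 48 h of doxorubicin MT-ND5 and MT-ND1 lie highest in GFP cells (1.27 and 1.24) and MT-ND6 and the rRNAs in ZMYND8 cells (1.23, 1.22 and 1.12), while all transient points are open with wide bars.

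In ZMYND8 cells the 6 h treatment moved few genes. MT-RNR1 was called as higher (log2 fold change 0.19, SE 0.0750, adjusted p = 0.0422) and MT-ND3 as lower (-0.19, SE 0.0729, adjusted p = 0.0343), 1 gene each way, where 21.8% and 19% of all genes were called. MT-ND3 had 699 and 918 CPM before and 746 and 668 CPM at 6 h, and the conditions overlapped. The untreated ZMYND8 libraries differ widely from each other, and they decide this comparison. Without the first of them 12 mitochondrial genes were called, all as lower, with a median log2 fold change of the mRNAs of -0.34, and without the second 14 were called, all as higher, with a median of 0.28. No direction can be read from the 6 h values.

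After 48 h of doxorubicin both mitochondrial rRNAs and 12 mRNAs were higher in ZMYND8 cells. Of the 26 genes tested 22 were called as higher, against 31.6% of all genes, and 0 as lower, against 30.8%. They included 8 tRNAs. Of the 10 markers expected in this line 9 were lower and 0 higher (median log2 fold change -0.50), and of 8 tested markers of other cells 6 were higher and 0 lower (median 1.39), and their part in the result was not tested. MT-RNR1 had 192 and 256 CPM in untreated ZMYND8 cells and 527 and 523 CPM after 48 h (log2 fold change 1.22, SE 0.0736, adjusted p = 5.76e-14). MT-RNR2 went from 1517 and 2098 CPM to 4103 and 3778 CPM (1.12, SE 0.0777, adjusted p = 1.06e-12). All 48 h libraries stood far above the untreated ones at both genes. MT-ND6, the mRNA of the minus strand, changed by 1.23 (SE 0.0865, adjusted p = 1.45e-12), from 35.9 and 48.2 CPM to 106 and 93.6 CPM. As for the other minus-strand genes, this value is uncertain.

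The other mRNAs rose less, with a median over all 13 of 0.45, beside 0.05 for all genes. MT-ND1 (1.00), MT-CO1 (0.76), MT-ND5 (0.61), MT-ND4L (0.56), MT-CYB (0.54), MT-ND4 (0.45), MT-CO3 (0.44), MT-ND2 (0.37), MT-CO2 (0.28), MT-ND3 (0.27) and MT-ATP8 (0.26) passed the test. MT-ATP6 did not (0.24, SE 0.112, adjusted p = 0.0629), with 979 and 1626 CPM before and 1610 and 1474 CPM after. MT-TL1 rose from 1.12 and 2.54 CPM to 7.32 and 5.62 CPM (log2 fold change 1.78), and MT-TQ (glutamine, 2.02) rose on 5 and 8 counts against 35 and 28. MT-TP (1.25) was called in all 4 fits that left out a library, as MT-TL1 and MT-TQ were, MT-TC (0.92) in 3, MT-TS1 (0.72) and MT-TN (0.68) in 2, and MT-TY (1.22) and MT-TT in 1. MT-TT rests on 2 and 3 counts against 18 and 7, too few for a fold change. The wide pair of untreated libraries matters here too. Without the first untreated ZMYND8 library 12 genes were called, the median of the mRNAs was 0.15 and MT-ND2, MT-CO2, MT-ATP8, MT-ND3, MT-ND4 and MT-CYB lost their calls, and without the second the median was 0.90. MT-RNR1 (1.01 to 1.44), MT-RNR2 (0.88 to 1.37) and MT-ND6 (1.02 to 1.46) stayed higher in the fits that left out a library. Dropping an untreated ZMYND8 library also drops the spread of that pair, so calls in such fits say little about stability. DESeq2 called 12 genes.

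The ZMYND8 line held more mitochondrial mRNA than the GFP line before any doxorubicin. Of the 26 genes tested 15 were called as higher in ZMYND8 cells, against 28.7% of all genes, and 2 as lower, against 29.5%. The 15 were 12 mRNAs, MT-RNR2 and the tRNAs MT-TL1 and MT-TS1. MT-CYB had 265 and 286 CPM in GFP cells and 451 and 822 CPM in ZMYND8 cells (log2 fold change 1.21, SE 0.140, adjusted p = 2.31e-08), and the lines did not overlap. MT-ND5 (1.18), MT-ATP6 (1.17), MT-ND4 (1.03), MT-ATP8 (1.02), MT-ND1 (0.97) and MT-CO1 (0.95) were close behind. MT-ND3 differed least among the mRNAs that passed (0.36, SE 0.0731, adjusted p = 1.07e-04), and MT-ND6 (0.23, adjusted p = 0.0525) did not pass.

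The rRNAs had smaller values than most mRNAs in this comparison. MT-RNR1 had 195 and 210 CPM in GFP and 192 and 256 CPM in ZMYND8 cells, which did not pass (0.15 on the log2 scale, adjusted p = 0.0855), and MT-RNR2 had 1518 and 1631 against 1517 and 2098 CPM (0.20, SE 0.0772, adjusted p = 0.0286). Scaled to the mitochondrial mRNA counts, which moved the median of all genes to -0.83, they were -0.71 and -0.67, and the values of MT-ND2, MT-CO2, MT-CO3, MT-ND3, MT-ND4L and MT-ND6 turned in sign too. MT-TC (-0.89) and MT-TN (-0.68) were the genes called as lower, on 48 and 57 against 23 and 37 counts and on 51 and 46 against 24 and 40 counts. MT-RNR2 went to -0.05 without the second ZMYND8 library and was then not called. The median of the mRNAs, 0.95 in the full comparison, was 1.23 without the first ZMYND8 library and 0.51 without the second, with 13 and 12 mRNAs called. MT-TC was lost without the second GFP or the first ZMYND8 library, MT-TL1 without the first GFP or the second ZMYND8 library, MT-TS1 without the second ZMYND8 library, and MT-TN was called in 1 of 4 fits. Each line was made once, so the construct and the history of the line cannot be told apart.

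At 6 h of doxorubicin the lines again differed in one direction. ZMYND8 cells were called as higher at 15 genes, against 28.9% of all genes, and as lower at 0, against 26.6%. These were 12 mRNAs, both rRNAs and MT-TS1. MT-ATP6 stood at 730 and 682 CPM in GFP cells and at 1109 and 1202 CPM in ZMYND8 cells (log2 fold change 0.71, SE 0.114, adjusted p = 5.60e-06). The rRNAs MT-RNR1 (0.42) and MT-RNR2 (0.43) differed less than MT-CYB (0.71), MT-CO1 (0.69) and MT-ND5 (0.68). MT-ND6 had 38.3 and 39.6 CPM against 36.7 and 43.7 CPM (0.04, adjusted p = 0.743) and was the only mRNA that did not pass. MT-TS1 was lost without the first GFP or the second ZMYND8 library at 6 h.

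At 48 h all 13 mRNAs and both rRNAs were higher in ZMYND8 cells. A total of 21 genes were called as higher, against 28.4% of all genes, and 0 as lower, against 31.6%. MT-RNR1 stood at 266 and 261 CPM in GFP cells and at 527 and 523 CPM in ZMYND8 cells (log2 fold change 0.99, SE 0.0725, adjusted p = 3.35e-12). MT-RNR2 (0.90), MT-CO3 (0.94) and MT-CO1 (0.92) differed by a similar amount, and MT-CO2 (0.47) and MT-ND5 (0.51) least. MT-ND3, which had not passed the test over 48 h in GFP cells, had 615 and 618 CPM there and 1026 and 923 CPM in ZMYND8 cells (0.66, SE 0.0728, adjusted p = 1.06e-08). The mRNAs and rRNAs stayed higher in ZMYND8 cells in every fit that left out 1 of these libraries, with MT-CO2 lowest (0.36 to 0.58). Of the 6 tRNAs called, MT-TL1 (0.88) was lost without the first ZMYND8 library and MT-TC (0.57) in all 4 such fits. MT-TP (0.90) was called in 1 of the 4, MT-TM in 2 and MT-TS1 (0.91) in 4. MT-TW (tryptophan) rests on 1 and 1 against 15 and 14 counts and MT-TM (methionine) on 4 and 2 against 21 and 11, too few for a fold change.

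The change over 48 h of doxorubicin was then compared between the lines by an interaction term, the log2 fold change in ZMYND8 cells minus that in GFP cells. Of the 26 genes 5 were called with a positive difference, against 12.7% of all genes, and 1 with a negative one, against 15.8%. The number positive is not far from the background share and the number negative is below it, so the counts do not set the mitochondrial genes apart. Both rRNAs changed more in ZMYND8 cells, MT-RNR1 by 0.84 (SE 0.105, adjusted p = 5.03e-07) and MT-RNR2 by 0.70 (SE 0.109, adjusted p = 1.57e-05). In the fits that left out a library their values were 0.64 to 1.07 and 0.46 to 0.95, and DESeq2 called both in the full data. Such a fit also drops the spread of the pair, so its calls say little about stability. MT-ND5 changed less in ZMYND8 cells (-0.67, SE 0.174, adjusted p = 0.00454).

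MT-ND5 started from 422 and 717 CPM in ZMYND8 cells against 243 and 262 CPM in GFP cells, and ended at 936 and 805 against 589 and 633 CPM. Its difference fell to -0.23 without the second untreated ZMYND8 library and was then not called. MT-ND3 (0.30, SE 0.103, adjusted p = 0.0317) was called in 3 of 8 such fits. The tRNAs MT-TC (1.46, SE 0.365, adjusted p = 0.00301) and MT-TN (1.13, SE 0.385, adjusted p = 0.0276) went from 2.43 and 3.01 CPM to 2.00 and 1.72 CPM and from 2.59 and 2.43 CPM to 1.82 and 1.85 CPM in GFP cells. In ZMYND8 cells they went from 1.28 and 1.62 to 2.52 and 3.02 CPM and from 1.34 and 1.75 to 2.81 and 2.21 CPM. Both tRNA genes lie on the minus strand and wholly within the nuclear copy, so their values are uncertain on both counts. In the fits without a library MT-TC had values of 1.30 to 1.65 and MT-TN of 0.95 to 1.35, and MT-TN did not keep its call in all of them.

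The other mRNAs had differences of either sign that did not pass, among them MT-CYB (-0.49), MT-ATP6 (-0.41), MT-ND6 (0.32) and MT-CO1 (-0.03), with a median of the 13 of -0.25. That median was -0.62 without the first untreated ZMYND8 library, where 13 genes were called, and 0.13 without the second, where 9 were, and DESeq2 called 3. The number of calls fell to 4 without the first 48 h GFP library.

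**Figure D4:**
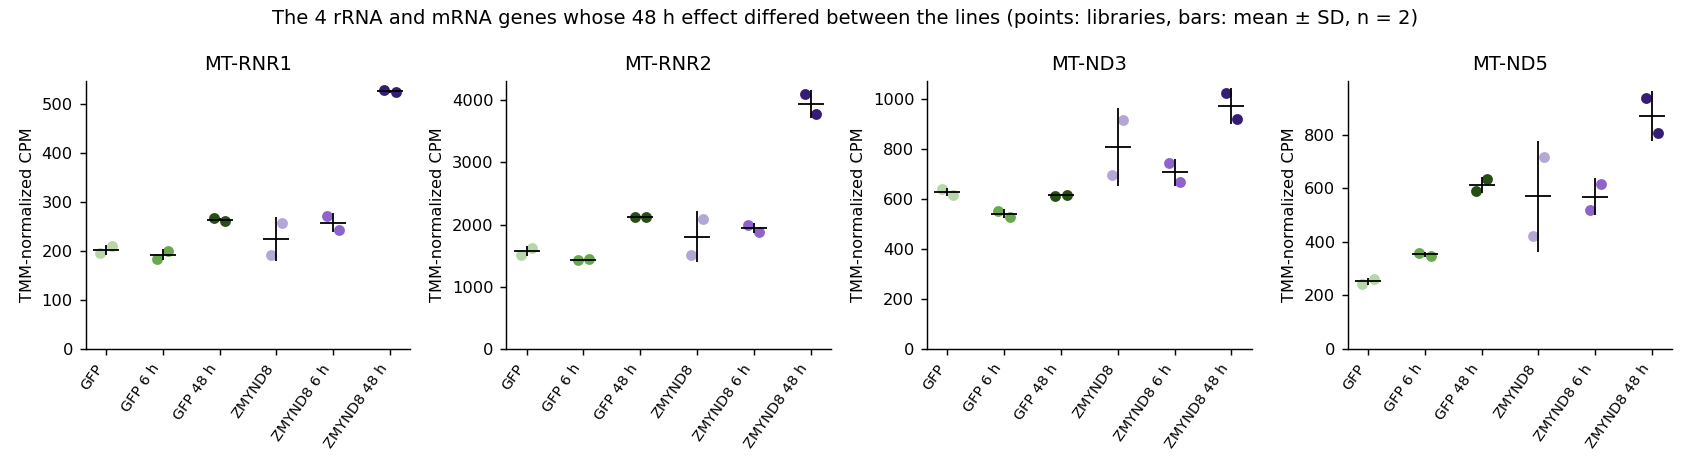
TMM-normalized CPM (vertical axis) of the 4 mRNA and rRNA genes called in the interaction, by condition of the inducible system (horizontal axis), with 1 point per library and bars for the mean and SD (n = 2). MT-RNR1 and MT-RNR2 stand apart in the 48 h ZMYND8 libraries (527 and 523 CPM for MT-RNR1), and the untreated ZMYND8 libraries have the longest bars at MT-ND3 and MT-ND5.

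The nuclear genes that supply the remaining subunits of the same complexes had lower signed medians after 48 h of doxorubicin than the mitochondrial ones. After 48 h of doxorubicin in GFP cells the 7 mitochondrial subunits of complex I had a median log2 fold change of 0.78 with 6 called as higher, while 36 nuclear subunits had a median of 0.08 with 14 higher and 11 lower, where 32.4% and 31.8% of all genes were called. NDUFS4 (-1.20) and NDUFA13 (0.98) were the largest of these. For complex IV the medians were 0.49 for the mitochondrial genes, 3 of 3 higher, and 0.06 for 11 nuclear genes, 5 higher and 2 lower. For the ATP synthase the mitochondrial genes had a median of 0.62, 2 of 2 higher, and the 18 nuclear genes one of -0.20, with 4 higher and 11 lower, such as ATP5MC2 (-0.84) of the membrane ring. For complex III MT-CYB stood at 1.03 and the 9 nuclear genes at a median of 0.10, 5 higher and 2 lower. Complex II, which is wholly nuclear, had 0 of 4 genes higher and 2 lower, SDHC (-0.34) and SDHA (-0.23).

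In ZMYND8 cells after 48 h, where 31.6% of all genes were higher and 30.8% lower, complex I had 20 higher and 6 lower nuclear genes with a median log2 fold change of 0.20 beside 0.56 for its mitochondrial genes. Complex IV had 9 higher and 0 lower (0.29 beside 0.44), with COX8A at 0.50. The ATP synthase had 7 higher and 5 lower (0.06 beside 0.25) and complex III 5 higher and 3 lower (0.17 beside 0.54). Between the lines at 48 h, where 28.4% of all genes were higher and 31.6% lower, 15 nuclear complex I genes were higher in ZMYND8 cells and 6 lower, with NDUFB9 lowest (-1.16), and 8 complex IV genes were higher and 2 lower, with COX7B highest (1.08). The medians at 48 h were 0.12 and 0.19 for these nuclear genes and 0.66 and 0.92 for the mitochondrial ones. In the transient comparisons 0 nuclear subunits of complexes I, III, IV and V were called by edgeR. Against control it called 2.98% of all genes as higher and 2.15% as lower after doxorubicin. For the labelled libraries these shares were 3.85% and 2.97%, and between the treated conditions 0%. The medians are given beside each other as descriptions, and the difference between the gene sets was not tested.

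**Figure D5:**
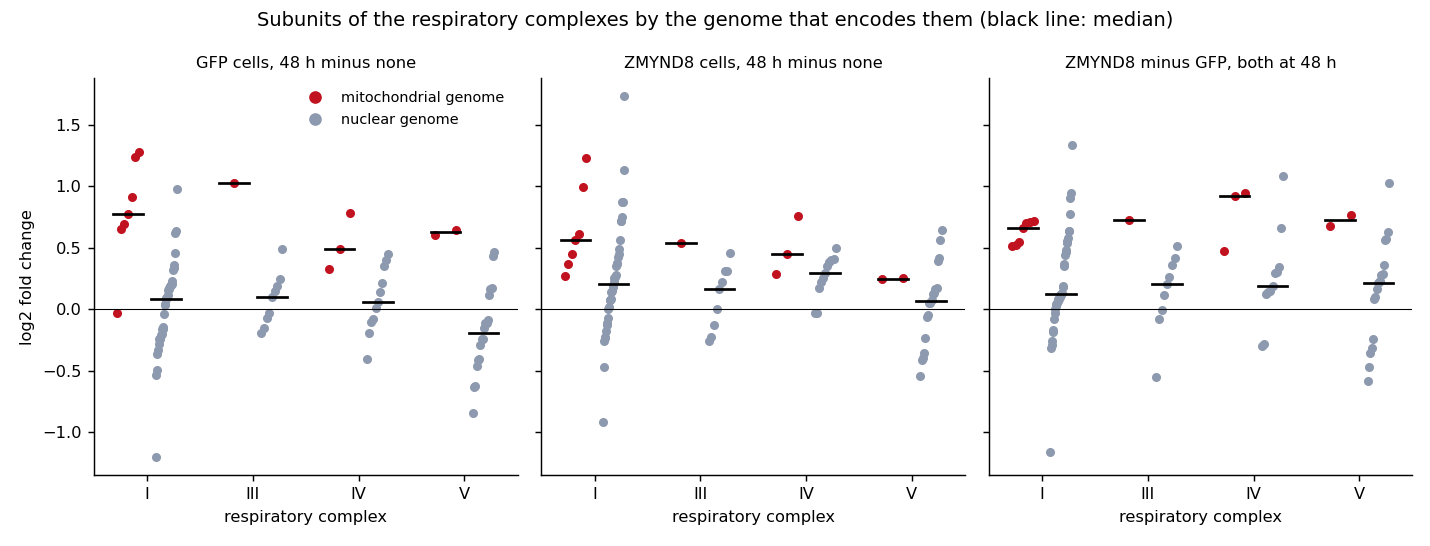
Log2 fold change (vertical axis) of single genes for subunits of complexes I, III, IV and V (horizontal axis), red for the mitochondrial and grey for the nuclear genome, with black lines for medians, after 48 h of doxorubicin in each line and between the lines at 48 h. After 48 h of doxorubicin in GFP cells the mitochondrial medians (0.78, 1.03, 0.49 and 0.62) lie above the nuclear ones (0.08, 0.10, 0.06 and -0.20).

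Nuclear genes whose products copy, transcribe, cut and stabilise mitochondrial nucleic acids were counted as a list of 42. After 6 h of doxorubicin in GFP cells 29 were called as higher and 4 as lower, against 22.1% and 25.8% of all genes, with a median log2 fold change of 0.34. They included TFB2M (1.07), a partner of POLRMT in starting transcription, and TWNK (1.07), the mitochondrial DNA helicase. After 48 h the numbers were 18 and 12, against 32.4% and 31.8% of all genes, with TFB1M (-1.24), which methylates the small-subunit rRNA, and TOP1MT (-1.05), the mitochondrial topoisomerase, among the lower and MTERF2 (1.20) among the higher. In ZMYND8 cells 26 were higher and 4 lower at 6 h, against 21.8% and 19% of all genes. Among the higher was TFAM (0.72), which packs mitochondrial DNA and takes part in its transcription. At 48 h 19 were higher and 9 lower, against 31.6% and 30.8%, with POLRMT at -0.83 and TFB1M at -1.03.

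Between the untreated lines 24 of the 42 genes were higher in ZMYND8 cells and 4 lower, against 28.7% and 29.5% of all genes, with a median of 0.23, among them TFB2M (0.88) as higher and PRORP (-1.14), the nuclease that cuts the 5′ ends of mitochondrial tRNAs, as lower. At 48 h 22 were higher and 6 lower (median 0.22), against 28.4% and 31.6%, with TWNK at 1.01. Among 10 nuclear regulators of mitochondrial biogenesis, 7 were higher and 1 lower between the untreated lines, PPARGC1B (1.03) and PPRC1 (0.63) among the higher, and 7 were higher and 0 lower at 48 h, with PPARGC1A at 1.33. Over 48 h of doxorubicin 3 regulators were higher and 7 lower in GFP cells, against 32.4% and 31.8% of all genes. PPARGC1A fell by 1.00 on the log2 scale there. In ZMYND8 cells 2 were higher and 4 lower, against 31.6% and 30.8%. In the transient system 2 of 40 machinery genes were called as higher after doxorubicin, PRIMPOL (1.22) and MGME1 (0.82), and 0 as lower. Of all genes 2.98% and 2.15% were called. In the labelled ZMYND8 libraries TRMU (0.79) was called as higher and TFB1M (-1.22) as lower, against 3.85% and 2.97% of all genes. These transient counts are near the background shares and do not set the machinery genes apart. The link between these genes and the mitochondrial transcripts was not tested.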

How the data were processed

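Per the file headers, the authors made the counts with featureCounts 1.6.4 and the gene models of GENCODE release 31, in paired and reverse-stranded mode, leaving out multi-mapping pairs and pairs on several genes, and deposited raw counts with no normalization. The gene lengths they deposited were used for RPKM. The study's methods name TopHat on hg38 as the aligner, the submitters' processing notes HISAT2 after Trim Galore. Poly(A) RNA was sequenced.

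From these counts, the 6 transient and the 12 inducible libraries were fitted separately in edgeR 4.0.16 (R 4.3.3) with TMM factors, filterByExpr, one mean per condition and the quasi-likelihood test, adjusted by the Benjamini-Hochberg method over all genes tested (15697 and 18801) and called at an adjusted p of at most 0.05. CPM are TMM-scaled, and shares use all counts. The study used cuffdiff, which was not used here. DESeq2 1.42.0, other scalings and filters, a replicate block and fits without each library, where a lone library is assumed to vary like the other conditions, were the alternatives. A fit without a library also loses the spread of its pair, so calls can come more easily there. The calls of these fits therefore say little about stability. The fits were tested on simulated data. Total counts set the precision of shares, and 2 libraries per condition that of comparisons. The p-values use a spread per gene that all conditions of a system share, so they can understate the uncertainty where a pair is wide. At the mitochondrial genes the chi-square over degrees of freedom was 63.4 in the untreated and 67.0 in the 6 h ZMYND8 pair. It was 18.0 in the 48 h ZMYND8 pair and 6.06 to 7.22 in the GFP pairs.

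All 37 genes on chrM were members. All mRNAs and rRNAs are named, and tRNAs where they passed the filter or were among the highest or lowest by count, with fold changes for those called. From each list of nuclear genes at most 3 called genes with the largest change were named per comparison. Members and lists were chosen with earlier results of these data known. Nuclear copies were found by aligning chrM to the hg38 reference at a minimum of 98% identity over 100 bases. Sequences came from that reference.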

Additional observations from a re-analysis of the deposited data

Results flagged for a closer look

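At 6 mitochondrial genes the change over 48 h of doxorubicin differed between ZMYND8 and GFP cells by the interaction test of edgeR's quasi-likelihood fit. The difference on the log2 scale, ZMYND8 minus GFP, was 0.84 at MT-RNR1, 0.70 at MT-RNR2, 1.13 at MT-TN, 1.46 at MT-TC, 0.30 at MT-ND3 and -0.67 at MT-ND5. MT-TN and MT-TC lie on the minus strand and wholly within a nuclear copy, and 36.8% of the bases of MT-RNR1 lie in such copies. Their values are uncertain to that extent. All 6 were singled out because this test of the difference itself passed at an adjusted p of at most 0.05, where 12.7% of all genes had a positive and 15.8% a negative difference called, against 5 and 1 of the 26 mitochondrial genes tested. These counts do not set the mitochondrial genes apart. When each of the 8 libraries behind it was left out in turn, MT-RNR1 had values of 0.64 to 1.07, MT-RNR2 of 0.46 to 0.95 and MT-TC of 1.30 to 1.65. MT-ND5 had -1.01 to -0.23, MT-ND3 0.097 to 0.51 and MT-TN 0.95 to 1.35, and these 3 did not keep their calls in all fits. DESeq2 called 3 of the mitochondrial genes, and MT-ND3 (0.28, adjusted p = 0.296) and MT-ND5 (-0.68, adjusted p = 0.125) were not among them.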

How the results depend on the processing

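Of 150 counts of called members, 113 lay within 1.5 times the main count, and 153 of 2085 gene values changed sign without being called in either fit. With library totals in place of TMM the median over all genes tested, on the log2 scale, was 0.27 in GFP and 0.25 in ZMYND8 cells at 48 h, and 0.15 and 0.14 in the transient comparisons with control. The cause of the differences below was not tested. Counts of members under other settings, here and above, come without the share of all genes called under the same setting. They show how the calls depend on the setting and not how the members compare with other genes.

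With a TMM-scaled denominator the mitochondrial share was 0.972% in GFP, 1.10% in 6 h GFP, 1.5% in 48 h GFP, 1.62% in 6 h ZMYND8 and 2.56% in 48 h ZMYND8 cells. The study's fold cutoff with an unadjusted p called 2 and 1 members in the transient comparisons with control, 0 at 6 h and 1 at 48 h in GFP cells, 0 and 4 in ZMYND8 cells, 0, 0 and 2 between the lines without and with 6 and 48 h of doxorubicin, and 0 in the interaction. Without a filter on low counts the transient comparisons gave 1 and 1, GFP at 6 h 13, ZMYND8 at 6 h 8 and the interaction 13. DESeq2's Wald test gave 1 for GFP at 6 h, 0 for ZMYND8 at 6 h, 12 for ZMYND8 at 48 h and 3 for the interaction. For ZMYND8 at 6 h, DESeq2's size factors and a minimum of 10 counts gave 1 each. MT-ND3 in GFP cells at 48 h was 0.22 with library totals.

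The replicate numbers of the labels name 2 libraries per condition, and the labels do not say what equal numbers share. Deviations from the condition means of equally numbered libraries correlated at 0.21 to 0.40 in the transient and at -0.046 to 0.022 in the inducible system. With the number as a replicate block, 2, 1 and 0 members were called in the transient comparisons.

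Scaled to the mitochondrial mRNA counts, which measures change relative to the other mitochondrial mRNAs, 6 members were called in GFP and in ZMYND8 cells at 48 h, 6, 2 and 1 between the lines without and with 6 and 48 h of doxorubicin, and 0 at 6 h in either line or in the interaction, and the sign turned in 39 values. For GFP cells at 48 h these were MT-RNR1 -0.28, MT-RNR2 -0.24, MT-CO2 -0.18, MT-ATP8 -0.067, MT-ATP6 -0.019, MT-CO3 -0.34 and MT-ND4L -0.016. For ZMYND8 cells at 48 h they were MT-ND2 -0.15, MT-CO2 -0.25, MT-ATP8 -0.26, MT-CO3 -0.086, MT-ND3 -0.29 and MT-ND4 -0.062. Between the untreated lines they were MT-RNR1 -0.71, MT-RNR2 -0.67, MT-ND2 -0.051, MT-CO2 -0.20, MT-CO3 -0.058, MT-ND3 -0.50, MT-ND4L -0.10 and MT-ND6 -0.66. At 6 h they were MT-RNR1 -0.15, MT-RNR2 -0.14, MT-ND2 -0.13, MT-CO2 -0.22, MT-CO3 -0.065, MT-ND3 -0.18, MT-ND4L -0.0092 and MT-ND6 -0.54, and at 48 h MT-ND1 -0.029, MT-ND2 -0.23, MT-CO2 -0.27, MT-ATP8 -0.071, MT-ND3 -0.088, MT-ND4L -0.038, MT-ND4 -0.049, MT-ND5 -0.24, MT-ND6 -0.20 and MT-CYB -0.023.

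With each library left out in turn, the members called ranged from 4 to 7 in GFP cells at 6 h, from 1 to 14 in ZMYND8 cells at 6 h, from 12 to 22 at 48 h and from 4 to 13 in the interaction. In ZMYND8 cells at 6 h the values ranged from -0.50 to 0.24 for MT-ATP6, -0.33 to 0.27 for MT-ATP8, -0.30 to 0.29 for MT-CO1, -0.43 to 0.15 for MT-CO2, -0.25 to 0.33 for MT-CO3, -0.35 to 0.52 for MT-CYB, -0.31 to 0.37 for MT-ND2, -0.38 to 0.020 for MT-ND3, -0.58 to 0.24 for MT-ND4, -0.44 to 0.28 for MT-ND4L and -0.34 to 0.43 for MT-ND5. At 48 h they ranged from -0.024 to 0.59 for MT-ATP8 and -0.0025 to 0.59 for MT-CO2. In the interaction MT-CO1 ranged from -0.31 to 0.30 and MT-ND4L from -0.41 to 0.32, and between the untreated lines MT-RNR2 from -0.054 to 0.43. Low counts limit the tRNAs and 2 libraries per condition limit every test.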

Other observations

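The mitochondrial mRNAs of complexes I and IV had unlike values within a complex. Within complex I, MT-ND1 and MT-ND5 rose by 1.24 and 1.27 on the log2 scale after 48 h of doxorubicin in GFP cells while MT-ND3 had -0.03, and between the untreated lines MT-ND5 differed by 1.18 and MT-ND6 by 0.23. Within complex IV, MT-CO1 rose by 0.79 and MT-CO3 by 0.32 in GFP cells after 48 h, and between the lines at 48 h MT-CO3 differed by 0.94 and MT-CO2 by 0.47. The complex V pair MT-ATP6 and MT-ATP8, which overlap, had like values, 0.65 and 0.60 in GFP cells and 0.24 and 0.26 in ZMYND8 cells after 48 h, and 1.17 and 1.02 between the untreated lines. As a share of all mitochondrial counts MT-CO2 went from 12.7% in untreated GFP cells to 11.6% after 48 h, and from 11.9% to 9.39% in ZMYND8 cells. MT-RNR2 went from 16.2% in GFP cells to 14.1% after 48 h, and from 10.9% to 15.4% in ZMYND8 cells. These values are descriptions with no test.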
